A study of Homo sapiens with 3 samples.

Results

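The mRNAs described here encode 10 transcription factors of the MYC and MAX network: MYC, MAX, MXD1, MXD3, MXD4, MXI1, MNT, MGA, MLX and MLXIP. They were taken by gene symbol from tables of 36817 gene identifiers, and all 10 were present in every count table. The question asked of them was how much of each mRNA, and which parts of it, came down with the RNA helicase DDX6. The assay was eCLIP: ultraviolet light fixes RNA to the proteins that touch it, RNase I shortens the RNA, and the fragments that an antibody pulls down are sequenced, as is an input made without that step. The cells were MOLM-13, an established human acute myeloid leukaemia line, and the labels give no treatment and no change of genotype for any library. The 2 immunoprecipitation (IP) libraries used an antibody to DDX6 from Novus, and the 1 input library, from the same line, used no antibody.

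MYC is a basic helix-loop-helix leucine zipper protein that drives growth and proliferation genes, and it binds DNA only when paired with MAX. MXD1, MXI1, MXD3, MXD4 and MNT compete for MAX and recruit SIN3 and histone deacetylase repressors, while MGA pairs with MAX inside a Polycomb-related repressor complex. MLX is a MAX-like partner, and MLXIP, also called MondoA, pairs with MLX to regulate genes of glucose handling. DDX6 blocks translation of its targets, helps to remove their caps, and holds together P-bodies, granules in the cytoplasm where silent mRNA is stored. The MYC mRNA is known for its short life, with destabilising elements in its coding sequence and its 3'UTR.

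In the order IP replicate 1, IP replicate 2 and input, which holds for every set of 3 values below, the libraries had 4643494, 1244213 and 7807540 counted reads. Exonic reads made up 67.6%, 62.6% and 30.7% of them, so the scaling chosen moves every exonic fold, as given below. All 13 myeloid markers had reads in all 3 libraries, with 8011 summed reads in the input. The 16 markers of other cell types summed to 122, 15 and 48 reads, and 8, 12 and 11 of them were at 0. COL1A1, a fibroblast collagen, held 82, 10 and 27 of those reads. The labels do not say whether the IP replicates were grown apart. The p-values therefore cover the spread between libraries that may be technical replicates, and the intervals cover counting error alone.

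Exonic reads, the sum of coding and UTR reads (plus exons of non-coding transcripts), were tested across 10392 genes with edgeR. A gene was called higher or lower in the IP at a Benjamini-Hochberg adjusted p under 0.05. Of the 10 network mRNAs, 5 were higher in the DDX6 IP than in the input (MYC, MGA, MNT, MXD1 and MAX), 1 was lower (MXD4) and 4 were not called. Of all genes tested, 16.7% were higher and 11.4% were lower. The median log2 fold was 0.70 over the members and 0.00 over all genes. The sign of the log2 fold was the same in both IP replicates for 9 members, MXI1 being the exception.

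MYC had 4622, 1261 and 831 exonic reads. On the CPM scale, which relates them to the TMM-scaled exonic depth of each library, these were 1443, 1591 and 376. Both IP libraries lay far above the input and close to each other. The log2 fold was 2.01 (SE 0.35, edgeR adjusted p = 5.87e-06), a 4.03-fold difference, and 97.7% of all genes tested had a smaller one. MYC was the most enriched member, and its log2 fold over its nearest neighbour, MGA, exceeded the combined standard error, with a difference of 0.70 against 0.44.

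MAX, the partner that MYC, the MXD proteins, MNT and MGA all share, had 483, 98 and 188 exonic reads. Its scaled values were 151, 124 and 85.0 CPM. Both IP values were above the input, by less than for MYC. The log2 fold was 0.71 (SE 0.26, edgeR adjusted p = 0.0333), and this call was lost under 5 of 7 alternative settings with a test, where the adjusted p ranged from 7.14e-08 to 0.325.

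The 4 mRNAs of the MXD family did not share a call. MXD1, the MAX partner that rises as myeloid cells mature, had 908, 183 and 309 exonic reads, or 284, 231 and 140 CPM. Its log2 fold was 0.89 (SE 0.25, edgeR adjusted p = 0.00429). MXI1, also known as MXD2, had 131, 99.7 and 99.97 CPM, so IP replicate 1 stood above the input and IP replicate 2 level with it. Its log2 fold was 0.23 (SE 0.26, edgeR adjusted p = 0.543), with 0.38 and -0.0040 in the replicates. MXD4 had 36, 9 and 57 exonic reads, or 11.2, 11.4 and 25.8 CPM, and both IP libraries lay below the input. It was the member called lower, at a log2 fold of -1.19 (SE 0.45, edgeR adjusted p = 0.0393). It rests on few reads, and scaling to library size alone gave 0.06 instead. MXD3 had 26, 9 and 30 exonic reads, or 8.12, 11.4 and 13.6 CPM, and was not called (log2 fold -0.57, SE 0.54, edgeR adjusted p = 0.464). With library size alone it was at 0.67, also not called.

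MNT and MGA, the larger MAX-binding repressors, were both higher in the IP. MNT had 311, 77 and 109 exonic reads, or 97.1, 97.2 and 49.3 CPM, with the replicates nearly equal and above the input. Its log2 fold was 0.98 (SE 0.29, edgeR adjusted p = 0.0068). MGA had 1267, 285 and 338 reads, or 396, 360 and 153 CPM, again with both IP values above the input. Its log2 fold of 1.31 (SE 0.27, edgeR adjusted p = 9.71e-05) exceeded that of 92.0% of all genes.

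The MLX branch was not called in either member. MLX had 244, 65 and 107 exonic reads, or 76.2, 82.0 and 48.4 CPM. Both IP values were above the input, yet the log2 fold of 0.70 (SE 0.30) had an edgeR adjusted p of 0.0706. MLXIP had 258, 66 and 231 reads, or 80.6, 83.3 and 104 CPM, with both IP values under the input and a log2 fold of -0.36 (SE 0.26, edgeR adjusted p = 0.33). In the order by log2 fold (MYC, MGA, MNT, MXD1, MAX, MLX, MXI1, MLXIP, MXD3, MXD4), 3 of the 9 neighbouring pairs differed by more than their combined standard error: MYC and MGA, MLX and MXI1, and MXI1 and MLXIP. The members from MGA to MLX therefore have no firm order among neighbours.

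**Figure D1:**
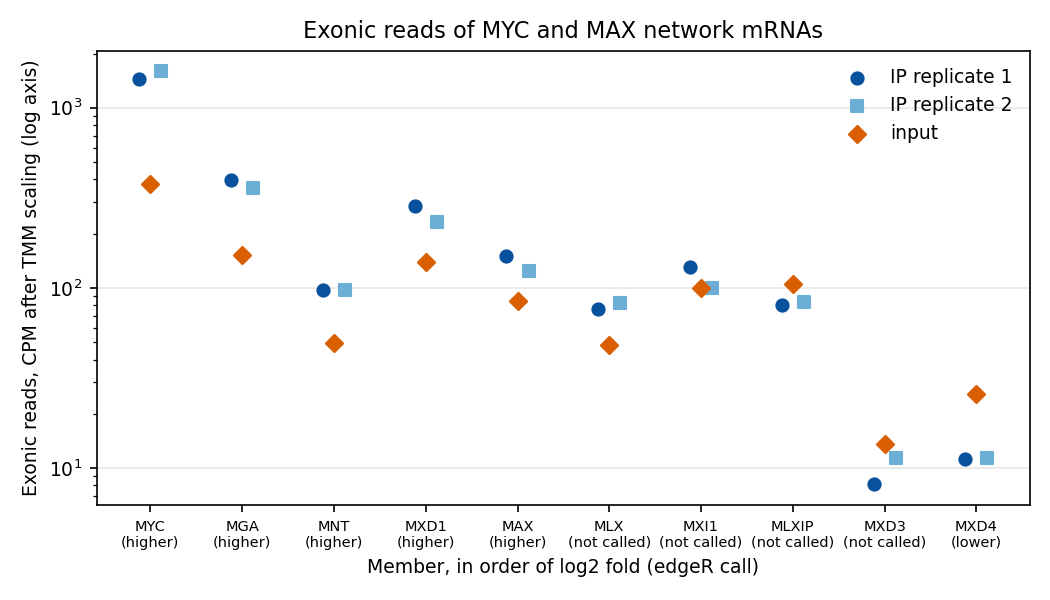
Exonic reads of each member in CPM after TMM scaling (log axis), 1 point per library, in order of log2 fold with the edgeR call under each name. MYC sits at 1443 and 1591 CPM in the IP libraries against 376 in the input, and MXD4 is the member called lower.

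The scale of these folds depends on what the libraries are scaled to. With library size alone, which counts intronic reads too, the median gene moved up by 1.24 on the log2 scale and 67.3% of genes tested were called higher, as were 8 of the 10 members. The log2 folds of MXD4, MXD3 and MLXIP, under 0 in the main scaling, were then above 0. With DESeq2 8.31% of 8175 genes were called higher, and 2 members, MYC and MGA, were among them. The input library has no replicate and was assumed to vary like the IP libraries.

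The same test was run for each transcript region, with all regions of all genes in 1 fit scaled over exonic and intronic rows together. In the coding sequence 7 of 9 members tested were higher in the IP, where 51.2% of 8169 genes were. In the 3'UTR 5 of 9 were higher, against 23.9% of 7194 genes, and in the 5'UTR 3 of 4, against 33.2% of 2025 genes. In introns 9 of 10 were lower, against 83% of 9153 genes. Lower intronic reads were thus the rule for all genes, and the members' share was near that background. The median log2 fold was 2.04 for coding reads of the members (1.02 over all genes), 0.88 for the 3'UTR (0.28) and -1.71 for introns (-1.93).

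The coding log2 fold was larger than that of the 3'UTR in MNT, MAX, MXD1, MLX, MGA, MXI1 and MLXIP, of which MAX, MXD1 and MLXIP also had a 5'UTR with enough reads to test. MNT had 90, 21 and 9 coding reads and a log2 fold of 3.33 (SE 0.57, edgeR adjusted p = 2.7e-08), and 98.7% of the coding sequences tested were below it. MAX had 161, 48 and 26 coding reads and a log2 fold of 2.80 (SE 0.44, edgeR adjusted p = 2.08e-09). MXD1, with 129, 26 and 20 coding reads, was at 2.64 (SE 0.47, edgeR adjusted p = 8.92e-08). All 3 are bHLH-zipper mRNAs with few coding reads in the input and more in each IP library.

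MLX had 126, 21 and 28 coding reads and a coding log2 fold of 2.04 (SE 0.44, edgeR adjusted p = 1.71e-05), so a member not called on its whole exonic reads was higher in its coding sequence. The same held for MXI1, with 114, 28 and 37 coding reads and a coding log2 fold of 1.68 (SE 0.43, edgeR adjusted p = 0.000248). The exonic and region fits are scaled differently. With normalisation factors from exonic rows alone the MXI1 coding call was lost (0.94, edgeR adjusted p = 0.0572) and that of MLX was kept (1.29, edgeR adjusted p = 0.0101). MGA had 888, 211 and 225 coding reads and a log2 fold of 2.01 (SE 0.35, edgeR adjusted p = 7.02e-08). MLXIP (93, 26 and 66 coding reads, log2 fold 0.63) and MXD3 (20, 8 and 14, log2 fold 0.83) were not called. MXD4, with 10, 2 and 9 coding reads, had too few for the test.

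All 3 exonic regions were tested in 4 members, MYC, MAX, MXD1 and MLXIP. Among these MYC had the folds closest to each other in size. Its coding sequence had 2653, 795 and 497 reads and a log2 fold of 2.61 (SE 0.41, edgeR adjusted p = 1.38e-09). Its 3'UTR had 1338, 263 and 204 reads and a log2 fold of 2.62 (SE 0.38, edgeR adjusted p = 4.56e-11), and 98.6% of the 3'UTRs tested were below it. Its 5'UTR had 631, 203 and 130 reads and a log2 fold of 2.52 (SE 0.36, edgeR adjusted p = 5.48e-11). The coding value placed MYC above 95.2% of coding sequences and the 5'UTR value above 91.9% of 5'UTRs. With factors from exonic rows alone the log2 folds were 1.88 in coding sequence, 1.89 in the 3'UTR and 1.79 in the 5'UTR.

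For the other members the 3'UTR values were smaller. MGA had 370, 74 and 112 3'UTR reads (log2 fold 1.66, SE 0.35, edgeR adjusted p = 1.07e-05) and MXD1 754, 145 and 279 (1.34, SE 0.34, edgeR adjusted p = 0.000202). MNT, with 210, 48 and 98 reads, was at 1.12 (SE 0.36, edgeR adjusted p = 0.00507). MLX, with 115, 44 and 79 reads, was at 0.88 (SE 0.38, edgeR adjusted p = 0.04). MAX (0.73, adjusted p = 0.0551), MXI1 (0.50), MLXIP (0.01) and MXD4 (-0.82) were not called, and MXD3, with 1, 0 and 7 reads, had too few for the test. With factors from exonic rows alone 2 members, MYC and MGA, kept the 3'UTR call.

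Reads in the 5'UTR were few outside MYC. MXD1 had 25, 12 and 10 of them (log2 fold 1.76, SE 0.70, edgeR adjusted p = 0.0225) and MAX 40, 5 and 11 (1.66, SE 0.66, edgeR adjusted p = 0.0238). MLXIP had 19, 8 and 20 and was not called. MGA had 9, 0 and 1 and MLX 3, 0 and 0, which says little at this depth. The MXD1 and MAX calls were lost without the filter on reads (adjusted p = 0.127 and 0.133) and with factors from exonic rows alone (0.228 and 0.273). MYC kept its 5'UTR call in all 6 alternatives that tested it.

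**Figure D2:**
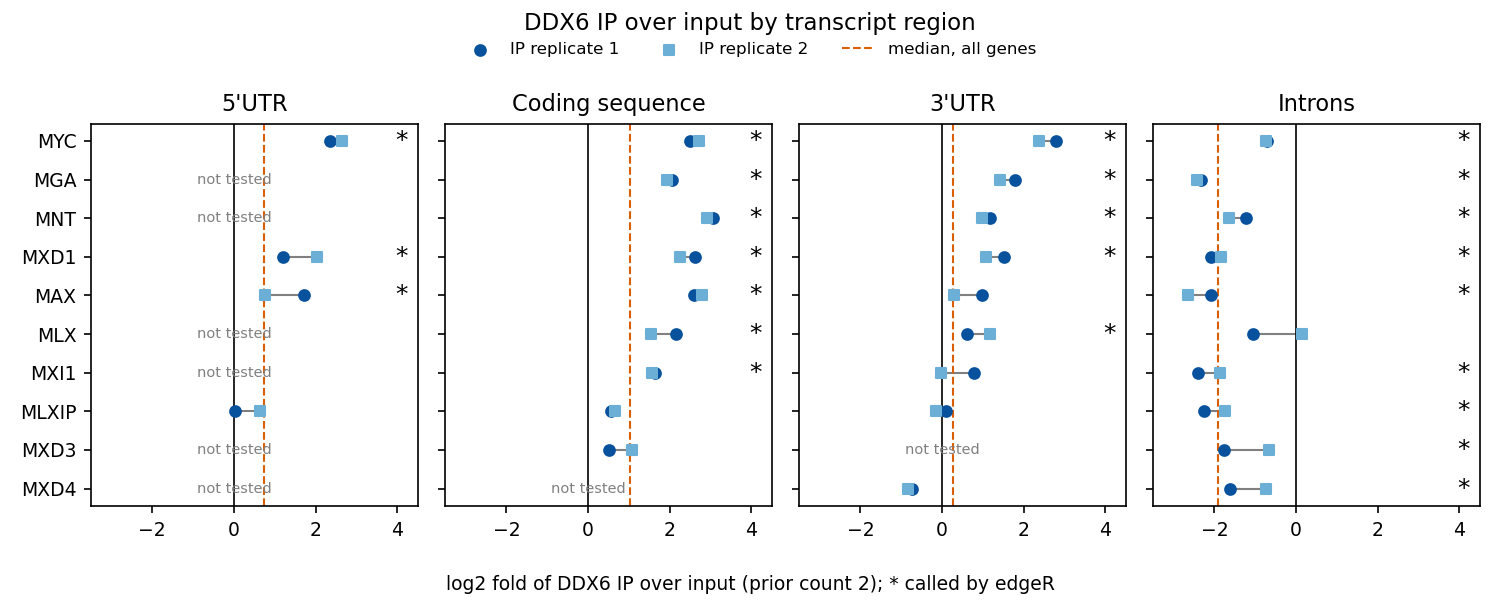
Log2 fold of DDX6 IP over input for each member by transcript region, 1 point per IP replicate (prior count 2), with the median of all genes dashed and an asterisk where edgeR called the region. MYC lies at 2.61, 2.62 and 2.52 in coding sequence, 3'UTR and 5'UTR, while MNT, MAX and MXD1 reach their highest folds among tested regions in the coding sequence.

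Intronic reads, which can come from unspliced RNA, were lower in the IP for 9 members. MGA went from 1051 in the input to 195 and 47 in the IP libraries (log2 fold -2.38, SE 0.31, edgeR adjusted p = 7.02e-13). MAX (-2.29), MXI1 (-2.22), MLXIP (-2.05) and MXD1 (-2.02) were close to it, and MNT (-1.41), MXD3 (-1.39) and MXD4 (-1.33) followed. MYC had 256, 66 and 452 intronic reads and a log2 fold of -0.73 (SE 0.31, edgeR adjusted p = 0.035), above 88.5% of genes with introns tested. Its call was lost with library size alone (-0.09), with DESeq2 (-0.72) and with a minimum of 30 reads (-0.54). MLX, with 22, 14 and 52 reads, was not called (-0.61, adjusted p = 0.294).

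The position of intronic reads is described without a test. In MYC, whose introns are short, 133 of 256, 24 of 66 and 254 of 452 intronic reads were in the proximal class of the tables, near the exons. In the other 9 members together the distal class held most of them, 456 of 662, 128 of 207 and 2522 of 3171. The contrast between MYC and this sum was present in the input as well as in the IP. It did not hold for each member. MLX had 1, 0 and 1 distal reads among 22, 14 and 52 intronic ones, and MXD3 had 8, 2 and 20 among 22, 13 and 86.

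Within each gene, reads were divided over the regions differently in IP and input, and in this the members were like most genes. The coding share of a member's reads was larger in both IP libraries than in the input for 10 of 10, against 93.6% of 9091 genes with reads in these regions. The intronic share was smaller for 10 of 10, against 95.8%. In MYC coding reads were 54.4% (exact Clopper-Pearson 95% interval 53.0 to 55.8) of all its reads in IP replicate 1, 59.9% (57.2 to 62.6) in IP replicate 2 and 38.7% (36.1 to 41.5) in the input. MYC intronic reads were 5.25% (4.64 to 5.91), 4.97% (3.87 to 6.28) and 35.2% (32.6 to 37.9). Introns thus gave MYC nearly as many reads as the coding sequence in the input and a small part in both IP libraries.

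MGA showed a wider shift, with coding shares of 60.7% (58.1 to 63.2) and 63.6% (58.1 to 68.7) in the IP libraries against 16.2% (14.3 to 18.2) in the input. MAX went from 4.62% (3.04 to 6.69) in the input to 28.5% (24.9 to 32.5) and 42.9% (33.5 to 52.6). MNT went from 4.39% (2.03 to 8.17) to 25.9% (21.3 to 30.8) and 25% (16.2 to 35.6). The coding share of MAX differed more between the IP replicates than that of MNT or MGA.

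Because introns take so much of the input, shares of exonic reads were also computed. The coding share of exonic reads was larger in both IP libraries for 9 of 10 members (70% of all genes), and MYC was the exception at 57.4% (56.0 to 58.8), 63.0% (60.3 to 65.7) and 59.8% (56.4 to 63.2). The 3'UTR share of all reads was larger in both IP libraries for 7 members (65% of all genes). Of exonic reads it was larger in 0 of 10 and smaller in both for 9 (70.2% of all genes). MAX illustrates this: its 3'UTR share of all reads was 45.1% ± 6.94 (SD, n = 2) in the IP and 26.8% (23.2 to 30.7) in the input. Of exonic reads it was 52.2% ± 8.81 (SD, n = 2) in the IP and 80.3% (73.9 to 85.7) in the input. These shares have 1 input library behind them and were not tested.

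**Figure D3:**
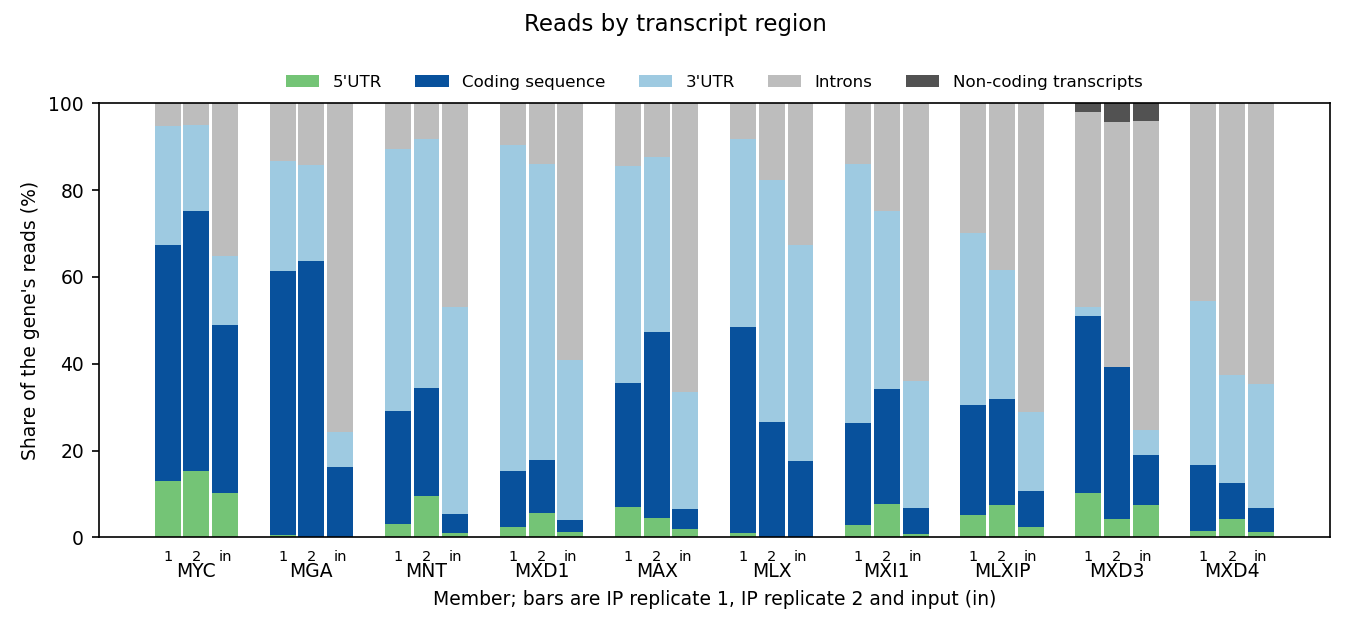
Share of each member's reads (%) in 5'UTR, coding sequence, 3'UTR, introns and non-coding transcripts, with 1 bar per library. Intronic shares are smaller and coding shares larger in both IP libraries than in the input for all 10 members.

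The coding log2 fold minus the 3'UTR log2 fold compares 2 regions of the same mRNA. It could be taken for 8 members and for 6552 genes. Over all genes its median was 0.82, and 87.3% of genes were above 0. It was above 0 in both IP replicates for 7 of the 8 members and for 78.6% of genes. MAX had 1.62 and 2.51 in the replicates, with 95.8% of genes below its mean. MNT had 1.90 and 1.93, with 94.0% below. MXI1 (mean 1.23), MXD1 (1.14) and MLX (0.95) lay nearer the median, and MLX varied from 1.54 to 0.37 between replicates. MLXIP (0.64) and MGA (0.39) lay under it.

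MYC stood at the other end, at -0.29 and 0.32 (mean 0.02), with 13.1% of genes below it. Its 5'UTR minus coding difference was -0.15 and -0.05, against an all-gene median of -0.30 over genes with both regions tested. MAX and MYC, whose proteins work as a pair, thus sit on opposite sides of the all-gene median. These within-gene differences were not tested.

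**Figure D4:**
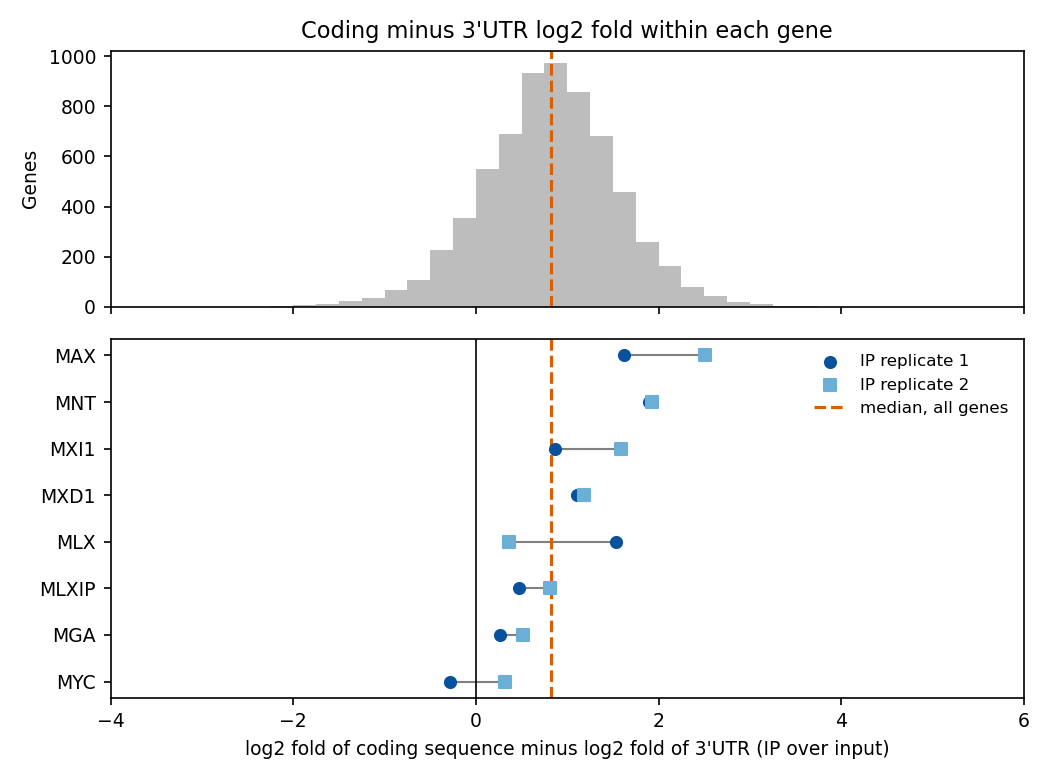
Coding minus 3'UTR log2 fold within each gene. The upper panel counts all 6552 genes and the lower panel shows 8 members by IP replicate, with the all-gene median of 0.82 dashed in both. MAX and MNT lie to the right of the median and MYC lies near 0.

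Each IP library has its own peak list from the authors, on build hg19, with a -log10 p and a log2 fold over the input for every peak. These are the authors' values and have no replicate error. Lines naming a member numbered 151 for IP replicate 1 and 92 for IP replicate 2, the order of all pairs of peak values below. A -log10 p of at least 3 together with a log2 fold of at least 3 was passed by 55 and 30 of them, where 11.5% of the 123298 and 12.9% of the 62411 peaks in the whole lists passed. Of the 55 peaks 42 were annotated to coding sequence, 10 to the 3'UTR and 3 to the 5'UTR. Of the 30 peaks 22, 5 and 3 were. Introns held 0 in both lists. The split by region over all such peaks is not given here, so these counts do not set the members apart from other genes.

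By the overlap of at least 1 base on the same strand, 21 of the 55 peaks met a peak past both thresholds in IP replicate 2, and 14 of the 30 met one in IP replicate 1. MYC gave 13 of those 21, MAX 4, MGA 3 and MXD1 1, with abutting peaks counted separately. A peak past both thresholds was present in both lists for 7 members. For MNT the numbers were 2 and 0, and for MXD3 and MXD4 0 in both. The share of all peaks past both thresholds that overlapped in this way is not given here. The members' overlaps, here and below, are thus not set against the whole lists.

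MYC carried the most peaks past both thresholds, 23 and 11. Coding sequence held 17 and 8 of them, the 3'UTR 4 and 1, and the 5'UTR 2 and 2. The -log10 p reached the cap of 400 in 13 and 2 of them. Many MYC peaks abutted. Merged where they touched, the 23 and 11 made 8 and 9 sites, against 11 and 8 sites for MGA. MYC thus did not have the most sites in IP replicate 1. The peaks covered 810 and 631 bases, and the 375 bases they shared were 46.3% of the former and 59.4% of the latter. The leading peak of IP replicate 1 was in the 3'UTR at chr8:128753227-128753277 on the plus strand, with a log2 fold of 4.31. The leading peak of IP replicate 2 was in the coding sequence at chr8:128752969-128753057, with a log2 fold of 3.86. Where several peaks were at the cap, the one with the largest log2 fold was taken as leading.

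The MYC peaks fell into clusters by genomic position, introns included, so a gap between clusters need not be a gap in the spliced mRNA. One ran from the end of the 5'UTR into the start of the coding sequence, and in IP replicate 1 a peak at chr8:128748832-128748844 held 8 bases of 5'UTR and 5 of coding sequence. In IP replicate 2 the peak across that boundary had a log2 fold of 2.95 and the next had 2.93, both under the threshold. The peaks on either side of them, in the 5'UTR (3.46) and the coding sequence (3.07), passed it. Another cluster lay within the coding sequence in the middle of the gene. The longest was in the last part of the coding sequence and went on into the 3'UTR. There, in IP replicate 1, a peak at chr8:128753187-128753226 spanned the end of the coding sequence with 19 coding and 21 3'UTR bases and a log2 fold of 4.22. In IP replicate 2 the peak across that boundary had a log2 fold of 2.97, under the threshold, and the next peak, in the 3'UTR, had 3.32.

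**Figure D5:**
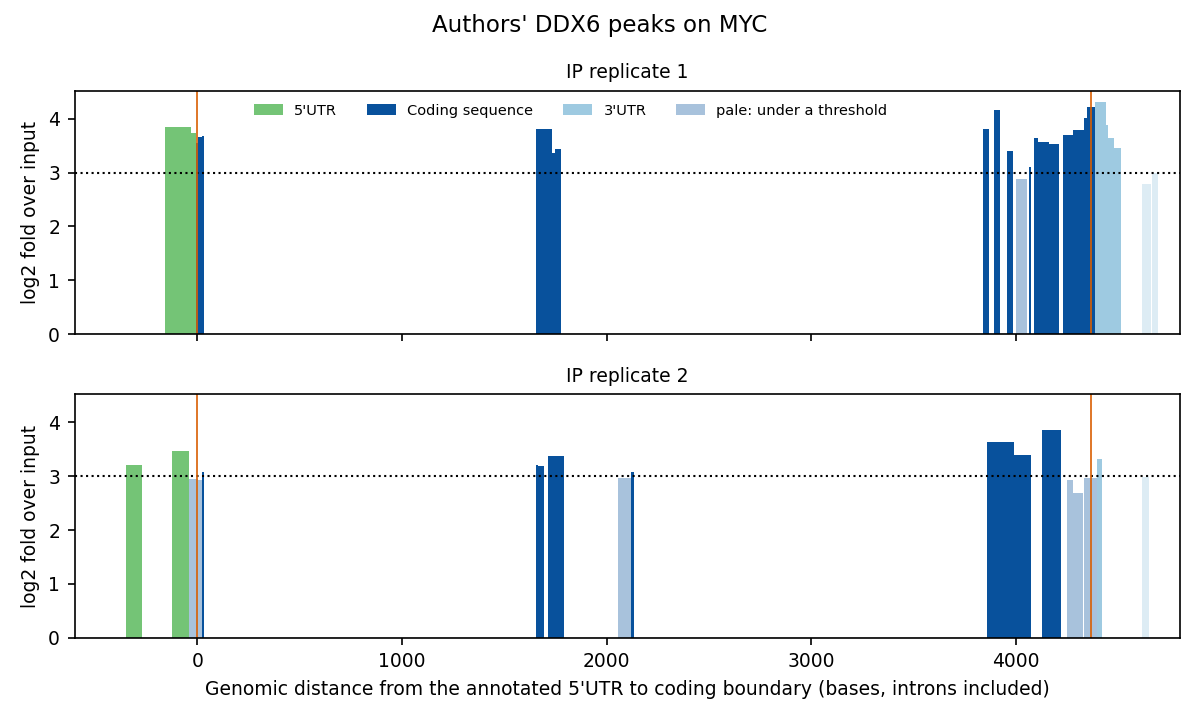
The authors' DDX6 peaks on MYC in each IP replicate, by genomic distance from the annotated boundary of 5'UTR and coding sequence (bases, introns included), with bar height the log2 fold over input and the dotted line at 3. Vertical lines mark the start and, 4366 bases on, the end of the coding sequence. Both replicates have peaks at the coding start, in the middle of the gene and toward the coding end.

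Peaks on the other members had smaller -log10 p values. MAX had 6 and 6 past both thresholds, 5 of them in coding sequence in each list. Its leading peaks were at chr14:65544646-65544680 in IP replicate 1 (-log10 p 17.6, log2 fold 4.27) and chr14:65543298-65543382 in IP replicate 2 (13.9 and 4.36), both in coding sequence on the minus strand. MGA had 12 and 8, of which 9 and 6 were coding. Its leading peaks overlapped, at chr15:41988343-41988509 (20.4 and 3.45) and chr15:41988319-41988443 (6.34 and 3.34). Both MAX and MGA thus had coding peaks that returned in the other replicate at the same place.

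MXD1 had 5 and 1. The leading peak of IP replicate 1 was in the 3'UTR at chr2:70165886-70165976 (-log10 p 17.9, log2 fold 3.08), and the lone peak of the other was coding, at chr2:70142516-70142533 (3.08 and 3.96). MXI1 had 2 and 2, led by a 3'UTR peak at chr10:112045236-112045276 (8.43 and 4.47) and a coding peak at chr10:112004586-112004626 (4.41 and 3.64). MLXIP had 3 and 1, led by coding peaks at chr12:122612450-122612517 (4.95 and 3.82) and chr12:122613674-122613770 (3.40 and 3.13). MLX had 2 and 1, led by a coding peak at chr17:40719124-40719184 (5.99 and 3.59) and a 3'UTR peak at chr17:40723767-40723821 (4.05 and 3.32). MNT's leading peak was coding, at chr17:2290541-2290587 on the minus strand (4.35 and 4.47). The peaks past both thresholds of MXI1, MLXIP and MLX did not overlap each other between the lists. All 3 and 1 of MLXIP, 1 and 1 of MXI1 and the lone one of MLX in IP replicate 2 did overlap a peak of the other list that missed a threshold.

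The lists annotate some of these positions to other transcripts too. All 34 MYC peaks past both thresholds also lay in distal introns of lncRNAs named lnc-ZNF623-2 and lnc-ZNF707-1. The peaks of MXD1 (6), MNT (2) and MLX (3) likewise lay in annotated lncRNA introns. How the authors' counting treats strand and overlapping transcripts is not given in the sources used here, and its part in these values was not tested.

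The authors' deposited table of reproducible peaks had 22 of its 1587 peaks on members: 18 on MYC, 3 on MAX and 1 on MGA. In the authors' deposited table the MYC peaks had log2 folds from 3.20 to 4.24, against a median of 3.84 over the whole table. The MYC peak with the largest fold in the authors' deposited table was coding, at chr8:128752734-128752760. The next largest MYC fold in the authors' deposited table was 3.81, so all MYC peaks but the largest lay under the median of 3.84. The 3 MAX peaks in the authors' deposited table were coding, with log2 folds of 4.23, 4.04 and 3.77. The MGA peak in the authors' deposited table, at chr15:41988319-41988443, was coding with a log2 fold of 3.55. Most of the member peaks in that table were on MYC, where many abutted. The largest folds of MYC and MAX there differed little.

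To find mRNAs with a pattern like MYC's, the log2 folds of 5'UTR, coding sequence and 3'UTR in each IP replicate were compared for 1812 genes. The measure was Euclidean distance over these 6 values, which come from 3 libraries and share the input. The closest were TNFAIP3, an inhibitor of NF-κB signalling (distance 0.69), and PTGER4, a prostaglandin E2 receptor (0.79). JMJD1C, a histone demethylase family member (0.83), SERTAD3, a transcriptional co-regulator (0.86), and EGR1, an immediate early zinc finger factor (0.88), followed. The median distance of all genes was 4.98. TNFAIP3 had 703, 157 and 96 coding reads and 737, 144 and 104 3'UTR reads, and JMJD1C had 4557, 899 and 634 coding reads. In the 5'UTR JMJD1C had 499, 126 and 70 reads. TNFAIP3 had 51, 10 and 7 there, PTGER4 55, 26 and 14, SERTAD3 26, 10 and 6, and EGR1 35, 11 and 3. Apart from JMJD1C, the 5'UTR part of these distances thus rests on few input reads. Besides MYC, the 1812 genes included the members MAX, MXD1 and MLXIP, none of them among these 5. The other members lacked a tested region.

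Genes around the network were read from 7 lists, with 91 of 100 listed genes tested. Of the 91, 14 were higher and 11 lower on exonic reads, shares near the 16.7% and 11.4% of all genes, and their median log2 fold was 0.02. With library size alone 75 were called higher, where 67.3% of all genes tested were, so the direction of the lists as a whole rests on the scaling. Of the 18 named list genes that were called, 4 (CREBBP, EP300, SIN3A and KLF10) kept the call in every alternative that tested them. All 7 named as lower lost it with library size alone, and FBXW7 (-1.25) and GSK3B (-0.76) were lower once intronic reads were added.

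Of 10 other network and E-box binding factors tested, 1 was higher and 1 lower. MYCL, the MYC paralog, had 41, 13 and 9 exonic reads and a log2 fold of 1.77 (SE 0.64, edgeR adjusted p = 0.0277). That call was lost without the filter on reads (adjusted p = 0.0602), and DESeq2 gave no adjusted p for it (unadjusted 0.0899). SREBF2, the regulator of sterol synthesis genes, was lower at -0.65 (SE 0.24, edgeR adjusted p = 0.0322), and TFEB, a lysosomal gene regulator, was not called at -0.93. Of 20 co-factors of MYC and the MXD proteins 6 were higher. The acetyltransferases CREBBP (1300, 308 and 285 reads, log2 fold 1.63) and EP300 (2462, 561 and 538, a 3.04-fold difference) led them, with SIN3A, the scaffold that MXD proteins bind, at 1.20 (1019, 228 and 292 reads). The list's median log2 fold was 0.01.

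In the MGA complex 1 of 9 members tested was higher and 2 lower. RNF2, its ubiquitin ligase, had 300, 52 and 74 reads, which gave a log2 fold of 1.29 (SE 0.32) and an edgeR adjusted p of 0.00103. YAF2, which binds the RING1 proteins, had 85, 18 and 170 (-1.60, SE 0.32, edgeR adjusted p = 5.24e-05), and TFDP1, the partner of E2F factors, was at -0.80. MGA and RNF2 were thus higher in the IP while YAF2 and TFDP1 were lower.

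Of 15 genes of MYC protein turnover 3 were higher and 1 lower. FBXW7, the ubiquitin ligase subunit that recognises phosphorylated MYC, had 341, 60 and 71 reads, a log2 fold of 1.54 (SE 0.31) and an edgeR adjusted p of 8.27e-05. AURKA, which shields MYC proteins from that ligase, was at 0.80, and GSK3B, the kinase that marks MYC for it, at 0.69. Of 14 tested genes listed as MYC mRNA-binding regulators 6 were lower and the other 8 were not called, with a median log2 fold of -0.54. HNRNPC (871, 191 and 1192 reads, log2 fold -1.07), FUBP1 (355, 71 and 455, -1.01) and CELF1 (614, 147 and 712, -0.77) had the smallest p. On coding sequence and 3'UTR reads only, FUBP1 lost its call (-0.36, edgeR adjusted p = 0.315), and HNRNPC and CELF1 kept theirs. With DESeq2 1 of the 14 was lower, and without the filter on reads 2 were. With library size alone 7 of the 14 were called higher, where 67.3% of all genes tested were. The sign of this list's folds thus rests on the scaling, while its share called higher was under that of all genes in both scalings.

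Of 21 MYC target genes 2 were higher and 1 lower, with a median of 0.03. CDC25A, a cell cycle phosphatase, had 287, 88 and 95 reads (log2 fold 1.20), POLR1B, a subunit of RNA polymerase I, 261, 95 and 112 (0.94), and ODC1, the first enzyme of polyamine synthesis, 296, 49 and 292 (-0.72). Of 2 tested targets of MLX and MLXIP, KLF10 was higher (945, 219 and 209 reads, a 3.03-fold difference, edgeR adjusted p = 1.27e-06), and ARRDC4, a glucose-responsive arrestin, was not called at 0.72. Of the genes named from these lists MYCL, at 1.77, had the largest log2 fold beside the 2.01 of MYC, and the difference between them was not tested.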

How the data were processed

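DDX6 eCLIP reads came from 2 IP libraries and 1 input library of MOLM-13 cells. Build hg19 and the tools SAMtools, STAR, cutadapt and UMI-tools are named in the submitters' processing notes. Not given in the sources used here are tool versions, the counter, the peak caller and the use of strand. The authors deposited tables of raw counts of reads by gene and region, and, per IP library, peaks with a -log10 p (capped at 400) and a log2 fold over input. How the authors combined replicates in the deposited list of reproducible peaks is not known.

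Of 29754 Ensembl identifiers 28576 matched a symbol. Genes, and gene regions in a separate fit, with at least 10 reads in at least 2 libraries were tested with edgeR 4.0.16 (glmQLFit, glmQLFTest, TMM, Benjamini-Hochberg), checked on simulated data. Lines of totals and of intergenic reads were left out. With 1 residual degree of freedom, the spread is that of the 2 IP libraries, and the input is taken to vary as they do. The common dispersion was 0.0272 for genes (a coefficient of variation of 16.5%) and 0.0356 for regions (18.9%). DESeq2 1.42.0 was an alternative. A prior count of 2 entered the log2 folds of single replicates, and shares have 95% exact intervals.

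The members, the 7 pathway lists and the markers were chosen with earlier results of these data known. Named genes are all members, up to 3 per list with the smallest p, the 5 closest to MYC, each member's peak with the largest -log10 p, and member peaks in the reproducible list. The MYC peaks that cross the ends of the coding sequence were picked out after their values were seen. PPP2CA, NME1, BOP1 and TXNIP were not analysed here. Peak sequences were not used here.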

Additional observations from a re-analysis of the deposited data

How the results depend on the processing

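MYC and MGA kept their exonic call in all 7 alternatives with a test. Against 5 members higher and 1 lower on exonic reads, library size alone gave 8 and 0, DESeq2 gave 2 and 0, no filter on reads gave 3 and 0, and adding intronic reads left 0 lower (at an unadjusted p under 0.05 these were 0, 0, 1 and 0). Over all genes 16.7% were higher and 11.4% lower in the main fit, and 67.3% and 1.36% with library size alone. DESeq2 gave 8.31% and 3.13%, and no filter gave 4.91% and 3.58%. Adding intronic reads gave 18.6% lower. With library size alone the log2 fold reversed for MXD4 (0.055) and turned to 0.88 for MLXIP and 0.67 for MXD3, so all 10 members were above 0. The 5 members higher in the 3'UTR became 3 with DESeq2, 3 without a filter and 2 with factors from exonic rows, which also made 1 (MXD4, -1.56) lower where 0 had been by edgeR, at an unadjusted p under 0.05, and by DESeq2. Of all 3'UTRs tested, 23.9% were higher in the main fit, 14.1% with DESeq2, 7.83% without a filter and 7.8% with those factors. With those factors 25.5% of all 3'UTRs tested were lower, against 6.83% in the main fit. The 3 in the 5'UTR became 1 with DESeq2 (which gives the other 2 no adjusted p), with at least 30 reads (which leaves them untested) and with factors from exonic rows, and the 9 lower in introns became 5 with library size alone and 5 with DESeq2. Of all 5'UTRs tested, 33.2% were higher in the main fit, and 26.1%, 51.7% and 15.7% in these 3 settings. Of all genes with introns tested, 83% were lower in the main fit, 67.7% with library size alone and 69.1% with DESeq2. The pathway lists, whose alternatives were added after seeing the data, went from 14 higher and 11 lower to 75 and 0 (library size alone), 6 and 2 (DESeq2), 9 higher (at least 30 reads, which tests fewer genes), 3 lower (no filter) and 18 lower (with intronic reads). Of all genes tested, 13.8% were higher with at least 30 reads, 3.58% were lower with no filter and 18.6% were lower with intronic reads. A log2 fold of at least 1 raised the peaks of IP replicate 1 from 55 to 109 and the shared ones from 21 to 40. An overlap of 50% of both peaks left 6 shared. A -log10 p of at least 5 left 17 peaks in IP replicate 2 and 3 members in both lists. The 7 members with a larger 3'UTR share became 0 with exonic reads as denominator. Except where the alternative tests fewer genes, the cause was not tested. Leaving out 1 IP replicate leaves 1 library against 1, a value with no test: 6 to 7 members then had an exonic log2 fold above 0. MXD3 has no adjusted p in DESeq2. No paired analysis was possible because the 1 input library carries no replicate number. The depth of IP replicate 2 and the lone input limit MXD3, MXD4 and most 5'UTRs.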
